A study of Mus musculus with 3 samples.

Results

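Single mouse embryonic stem cells (mESCs) with high levels of Bnip3, Pgk1 and Tpi1 transcripts were compared with mESCs of the same pool in which these transcripts were low. Each cell was given a score, the mean of log2(CPM + 1) of the 3 genes, where CPM is the count of a gene per 1000000 counts on all genes of that cell. Within each of 3 pools, named by the column prefixes of the table and called pools 1 to 3 here, the 25% of cells with the highest score and the 25% with the lowest were taken. Of 215 mESC columns, 203 had at least 100000 counts (87, 71 and 45 per pool), and the rule gave 49 high-score and 49 low-score cells (21, 17 and 11 of each kind per pool). These 98 cells are part of a series of 622 single cells from 3 cultures, the mESCs and the cardiac precursor cell cultures (CPCCs) and cardiac bodies (CBs) made from them.

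All cells compared here shared genotype and culture. They were male F1 hybrids of a C57BL/6J mother and a CAST/EiJ father, from clonal lines of 3 blastocysts, derived on feeder cells and then kept feeder-free on gelatin with serum, LIF and 2 inhibitors (PD0325901 against MEK and CHIR99021 against GSK3), the medium known as 2i. The labels name no further treatment and no genetic change. Cells were captured on a microfluidic chip, their polyadenylated RNA was copied to cDNA over its whole length, and the cDNA was sequenced in pools. The sources used here do not tie a pool to a line, and the mESCs are 1 sample, so pools were not taken as labelled replicates. No test between groups was possible. Values are given per pool with the mean and SD over 3 pools as a description of these cells.

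Bnip3 codes for a protein of the outer mitochondrial membrane that takes part in mitophagy, the removal of mitochondria by autophagy. Pgk1 and Tpi1 code for phosphoglycerate kinase and triosephosphate isomerase, enzymes of glycolysis. All are textbook targets of hypoxia-inducible factor (HIF), whose alpha subunit is hydroxylated and degraded when oxygen is plentiful and otherwise pairs with ARNT and binds short DNA motifs near genes for glycolysis, glucose uptake, angiogenesis and collagen modification. Mouse embryonic stem cells draw on both glycolysis and mitochondrial respiration.

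The stretches of 250 bases before the gene start are shown for the score genes Bnip3 and Pgk1 and for 4 genes whose levels are described further on: P4ha2, Pdk1 and Ankrd37 of the hypoxia-inducible genes and the lactate dehydrogenase gene Ldha. They were read from RefSeq on GRCm38.p6, 5′ to 3′ along the gene's own strand, and capitals mark ACGTG or GCGTG, the core letters of the HIF motif, on either strand. The palindrome CACGTG holds ACGTG on both strands and counts as 2 matches. For Pdk1 and Ldha the first of 2 listed starts is shown. The starts in RefSeq can differ from those in GENCODE. The stretches of P4ha2, Ldha and Ankrd37 lie inside the longer gene that GENCODE gives, with 0, 0 and 17 bases in its exons, and that of Bnip3 reaches 13 bases into an exon. The stretch of Tpi1 had 138 of its 250 bases in GENCODE exons of Tpi1 and is therefore not shown, and it held 0 matches.
Bnip3 (chr7:138909507-138909756, minus strand): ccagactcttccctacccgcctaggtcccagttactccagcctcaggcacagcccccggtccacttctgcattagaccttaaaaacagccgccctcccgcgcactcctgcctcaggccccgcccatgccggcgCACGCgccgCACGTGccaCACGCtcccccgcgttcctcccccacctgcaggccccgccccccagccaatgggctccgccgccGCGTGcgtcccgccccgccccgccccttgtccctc
Pgk1 (chrX:106186850-106187099, plus strand): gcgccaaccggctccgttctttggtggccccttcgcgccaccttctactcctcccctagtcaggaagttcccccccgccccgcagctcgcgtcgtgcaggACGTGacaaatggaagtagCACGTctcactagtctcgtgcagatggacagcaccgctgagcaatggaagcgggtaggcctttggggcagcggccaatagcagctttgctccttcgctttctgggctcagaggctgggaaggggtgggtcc
P4ha2 (chr11:54100674-54100923, plus strand): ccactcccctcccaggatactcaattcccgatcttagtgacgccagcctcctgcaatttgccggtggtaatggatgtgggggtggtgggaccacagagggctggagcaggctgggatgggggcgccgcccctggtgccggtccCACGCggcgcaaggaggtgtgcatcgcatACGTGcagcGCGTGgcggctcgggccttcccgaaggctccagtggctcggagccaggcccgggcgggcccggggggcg
Pdk1 (chr2:71872974-71873223, plus strand): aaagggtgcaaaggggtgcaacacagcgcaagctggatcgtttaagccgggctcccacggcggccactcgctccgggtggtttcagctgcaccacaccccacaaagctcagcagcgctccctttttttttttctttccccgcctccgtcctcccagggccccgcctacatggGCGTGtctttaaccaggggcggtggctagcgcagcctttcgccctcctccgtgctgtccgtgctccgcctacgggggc
Ankrd37 (chr8:45999851-46000100, minus strand): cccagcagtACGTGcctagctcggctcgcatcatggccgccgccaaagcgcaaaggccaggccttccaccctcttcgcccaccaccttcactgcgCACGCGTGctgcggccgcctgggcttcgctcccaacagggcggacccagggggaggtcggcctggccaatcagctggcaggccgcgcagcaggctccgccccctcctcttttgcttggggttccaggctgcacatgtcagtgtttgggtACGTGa
Ldha (chr7:46845554-46845803, plus strand): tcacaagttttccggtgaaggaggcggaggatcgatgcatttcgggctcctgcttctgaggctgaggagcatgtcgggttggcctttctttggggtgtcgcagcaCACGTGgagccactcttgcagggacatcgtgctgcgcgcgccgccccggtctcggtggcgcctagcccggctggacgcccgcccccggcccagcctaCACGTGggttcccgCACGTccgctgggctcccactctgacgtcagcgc
The Bnip3 stretch held 5 matches, between 117 and 35 bases before the start, and that of Ldha also held 5. The Ankrd37 stretch held 4, that of P4ha2 held 3, that of Pgk1 held 2 and that of Pdk1 held 1. The stretch of the second start held 0 matches for Pdk1 and 1 for Ldha. At least 1 match was present in 38.6% of all 32851 stretches of this length in the table and in 58.2% of those of the genes compared here. The share was 58.5% for genes called higher in high-score cells, 56% for genes called lower and 75.6% for 45 stretches of the hypoxia-inducible genes. A match is a description of the letters and not a binding site.

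The 3 score genes themselves are given as a description, since they chose the cells. Bnip3 (chr7:138890836-138909519, minus strand, GENCODE on GRCm38) stood at 0.0439, 40.5 and 23.2 CPM in the summed counts of the low-score cells of pools 1, 2 and 3 and at 145, 1136 and 609 CPM in the high-score cells. The low-score cells of pool 1 held 1 Bnip3 count in all (exact Poisson 95% interval of 0.00111 to 0.245 CPM, counting error only). Pgk1 (chrX:106187100-106203699, plus strand) stood at 132, 228 and 325 against 341, 1045 and 960.0 CPM. Tpi1 (chr6:124810586-124814296, minus strand) stood at 162, 429 and 647 against 694, 1299.9 and 1449 CPM. Bnip3 thus spanned a much wider range than the 2 enzymes, and in every pool its lowest high-score cell lay above its highest low-score cell.

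The pools differed in where their cells lay. A Bnip3 count was seen in 42 of 87 kept cells of pool 1 (48.3%, exact binomial 95% interval 37.4% to 59.2%), in 67 of 71 of pool 2 (94.4%, 86.2% to 98.4%) and in 42 of 45 of pool 3 (93.3%, 81.7% to 98.6%). After each cell had been thinned to 100000 counts the shares were 39.1%, 91.5% and 84.4%. Over all kept cells, Bnip3 stood at 43.9, 409 and 347 CPM. In terms of the score itself, 20 of 21 high-score cells of pool 1 scored below the lowest high-score cell of pool 2, and 13 scored below its highest low-score cell, so that high and low are relative to the pool.

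**Figure D1:**
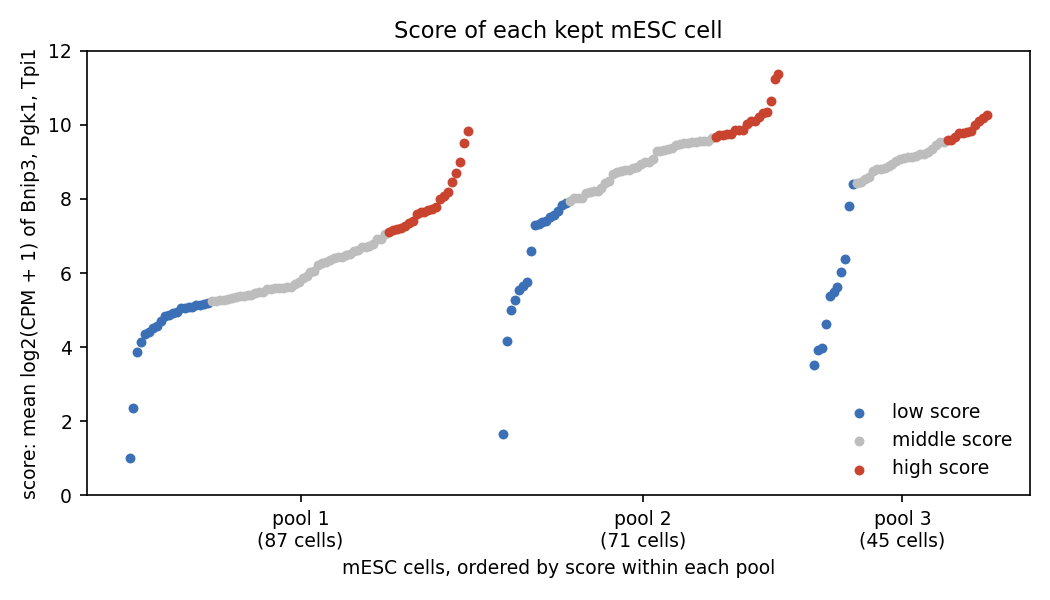
Score of each of the 203 kept mESC cells (mean log2(CPM + 1) of Bnip3, Pgk1 and Tpi1), ordered within each pool, with the low-score and high-score cells in blue and red and the cells between them in grey. The low-score cells end at 5.19, 7.89 and 8.40 in pools 1, 2 and 3 and the high-score cells start at 7.12, 9.68 and 9.58, with the nearest cells between them at 5.24, 7.94 and 8.43 and at 7.05, 9.64 and 9.53.

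The low-score cells of pool 3 stood apart in RNA content. Their median share of counts on mitochondrially encoded genes was 37.3%, against 3.07% in the high-score cells of that pool, 3.08% and 3.44% in the low-score and high-score cells of pool 1 and 5.20% and 4.11% in those of pool 2. Their median number of genes with a count was 5499, against 10014 in the high-score cells. Of the 14 kept cells above a share of 15%, 12 were low-score cells (8 of the 11 in pool 3) and 1 was a high-score cell. Over the cells of a pool, Spearman's rho of the score with this share was 0.06, -0.31 and -0.62 (87, 71 and 45 cells, which share a pool and are not replicates). The lists and most single genes that were called are therefore also given from the 189 cells with a share of at most 15%, divided anew into 46 high-score and 46 low-score cells. The values in 4 parts of the score and the ranking by likeness come from all kept cells. The part of RNA quality in the results was not tested beyond this.

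**Figure D2:**
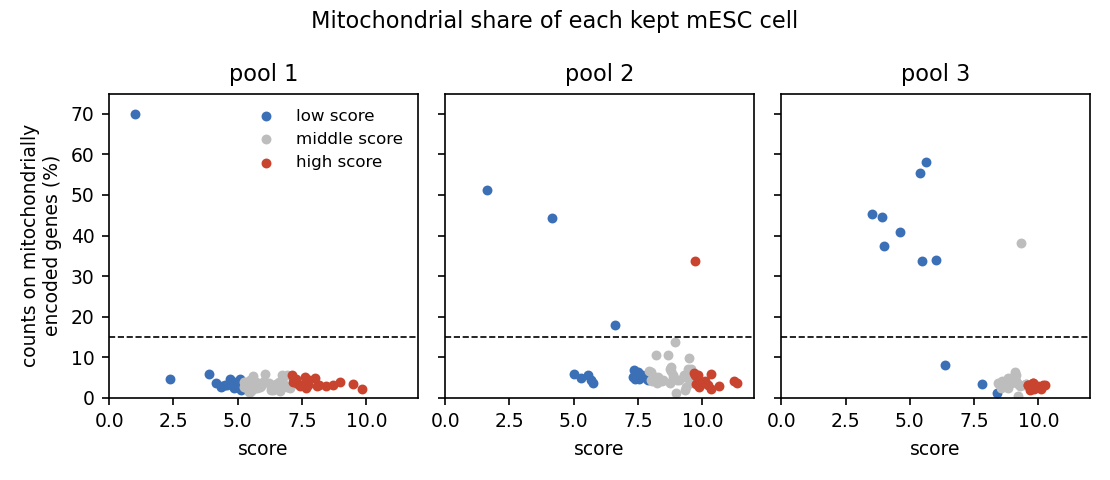
Share of counts on mitochondrially encoded genes (%) of each kept cell against its score, by pool, coloured by group, with the 15% limit as a dashed line. In pool 3, 8 of the 11 low-score cells lie above the limit and no high-score cell does.

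The 3 genes chose the cells, so their own values are given as a description and support nothing else. In cells chosen by Pgk1 and Tpi1 alone, Bnip3 stood at 24.1, 46.5 and 92.7 CPM in the low cells and at 126, 926 and 567 CPM in the high cells, log2 ratios of 2.34, 4.29 and 2.60 with a mean of 3.07 ± 1.06 (SD over 3 pools), and 2.73 with the 15% limit. In cells chosen by the other 2 genes, the mean log2 ratio was 1.55 ± 0.50 for Pgk1 and 1.35 ± 0.28 for Tpi1, and 1.30 and 1.03 with the limit. Over cells, Spearman's rho between Bnip3 and Pgk1 was 0.28, 0.85 and 0.65 in pools 1, 2 and 3, that between Bnip3 and Tpi1 was 0.34, 0.71 and 0.55, and that between Pgk1 and Tpi1 was 0.53, 0.72 and 0.59. In pool 1, about as many cells lacked a Bnip3 count as had one.

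Beyond the score genes, 10405 genes with at least 5 CPM over all kept mESC cells were compared. That minimum covers all kept cells together, so a gene scarce in 1 group could pass it through the other cells. A gene was called higher when the mean of its 3 log2 ratios of (CPM + 1) was at least 1 and every pool was above 0, and lower in the mirror case. By this rule 556 genes (5.34%) were higher in the high-score cells and 191 (1.84%) were lower, and 1979 (19%) and 865 (8.31%) had ratios above or below 0 in all 3 pools whatever their size. With the 15% limit, 311 genes (2.99%) were higher and 219 (2.1%) lower, of which 214 and 100 had the same call without it. The share of higher genes among those called was 74.4%, but 58.7% with that limit and 59.9% with DESeq2 size factors. The calls were concentrated in genes of low level, with 9.18% of 3800 genes between 5 and 20 CPM called higher against 3.94% of 4487 between 20 and 100 CPM and 1.42% of 2118 at 100 CPM or more. Across all genes compared, the ratios of any pair of pools had a Pearson's r of 0.02 to 0.09, which describes genes and not replicates. The median ratio over all genes was 0.18, from 0.02, 0.03 and 0.48 in the 3 pools, and -0.01 with the limit.

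The genes called higher included 5 near-copies of the score genes, whose counts may be reads of those genes. Gm16439, a processed pseudogene on chromosome 14 that is 98.9% identical to a Bnip3 transcript over 564 bases, had the highest mean ratio of the genes that met the naming rule, at 0, 3.36 and 2.04 against 14.1, 109 and 73.2 CPM. The long non-coding AC160336.1, which spans it, followed at 0.396, 5.07 and 2.98 against 14.8, 109 and 64.8 CPM. Gm5537 and Pgk1-rs7 were identical to Pgk1 over their whole length and Tpi-rs11 was 97.7% identical to Tpi1. They are not counted in the lists below.

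The enzymes of glycolysis were higher in high-score cells as a group. Of 18 listed enzymes, 2 were score genes and 15 of the others reached 5 CPM. Of these 15, 5 were called higher (against 5.34% of all genes) and 0 lower, and 11 were above 0 in all 3 pools (against 19%). Their median log2 ratio was 0.94 (0.54, 1.22 and 1.17 by pool) beside 0.18 for all genes, and 0.88 beside -0.01 with the 15% limit. Their summed level, score genes left aside, went from 6585 to 11025 CPM in pool 1, from 7221 to 15799.6 CPM in pool 2 and from 8319 to 18284 CPM in pool 3. Among them, the ratio differed least between pools for Aldoa and Gapdh, with an SD of 0.13 each.

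Early in the pathway, Hk1 and Hk2, the hexokinases that trap glucose in the cell, had ratios of 0.01, 0.41 and 1.13 and of -0.26, 1.30 and 0.31 in pools 1, 2 and 3, with means of 0.52 and 0.45, and 0.75 and 0.43 with the limit. Gpi1, glucose-6-phosphate isomerase, stood at 365, 318 and 613 CPM in low-score and at 499, 1082 and 928 CPM in high-score cells, a mean log2 ratio of 0.94 ± 0.72, and 1.01 with the limit. Pfkl, the liver form of phosphofructokinase, was called higher at 32.4, 41.3 and 109 against 41.6, 149.6 and 265 CPM, with ratios of 0.35, 1.83 and 1.28 and a mean of 1.18 with the limit. The platelet form Pfkp had 0.68, 1.63 and 0.15, so both were highest in pool 2. The muscle form Pfkm owed its mean of 1.17 to pool 3, where the low-score cells held 0 counts, and its mean was 0.37 with the 15% limit.

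Aldoa, the main aldolase of these cells, stood at 1360.3, 1747 and 1896 CPM in low-score and 2752, 4064 and 4549 CPM in high-score cells. Its log2 ratios of 1.02, 1.22 and 1.26 gave a mean of 1.17 ± 0.13, and 0.92 with the 15% limit, where it fell short of the call. Single cells of pool 1 ranged over 36.2 to 2322 CPM with a median of 1527 in the low-score group and over 1602 to 4519 CPM with a median of 2650.2 in the high-score group, so the groups overlapped although all 21 high-score cells were above the low median. The other aldolase, Aldoc, was lower in level at 4.26, 41.02 and 44.3 against 14.7, 144 and 119 CPM and had the highest mean ratio of the enzymes, 1.59 ± 0.19, and 1.53 with the limit. Aldoc was seen in 14.3%, 52.9% and 45.5% of low-score cells and in 42.9%, 100% and 90.9% of high-score cells of pools 1, 2 and 3.

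Further down the pathway, Gapdh, often used as a reference transcript, differed by 0.37, 0.59 and 0.58 (mean 0.51 ± 0.13), and 0.46 with the limit. Pgam1, phosphoglycerate mutase, had a mean of 0.86 ± 0.41 and Pkm, pyruvate kinase, 0.85 ± 0.38, with every pool above 0 for each, and 0.54 and 0.64 with the limit. Eno1, an enolase, was called higher at 415, 435 and 389 against 723, 937 and 1444 CPM, with ratios of 0.80, 1.10 and 1.89 in pools 1, 2 and 3 and a mean of 1.03 with the limit. Eno1b, which may share reads with Eno1, had more counts, at 1575, 1719 and 1326 against 2761, 3606 and 5210 CPM. Its mean was 1.28, and 0.98 with the limit, where it fell short of the call. Eno3, the muscle enolase, had ratios of -0.47, 0.74 and -0.80 and was the 1 enzyme with a mean below 0. Ldha, which turns pyruvate into lactate, was called higher at 961, 870.2 and 1755 against 1798, 3012 and 3937 CPM, with ratios of 0.90, 1.79 and 1.17 (mean 1.29 ± 0.46) and 1.07 with the limit. Its partner Ldhb had 2.20, 1.81 and -0.27, above 0 in pools 1 and 2 and not in pool 3.

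Of the carriers that bring glucose in and lactate out, 5 reached 5 CPM, of which 2 were called higher (Slc2a1 and Slc16a3, against 5.34% of all genes) and 0 lower, with and without the 15% limit. All 5 were above 0 in every pool (against 19% of all genes) with a median of 0.82, and 4 of 5 were so with the limit, with a median of 0.62. Slc2a1, the glucose transporter GLUT1, was called higher at 56.3, 76.2 and 135 against 110.1, 343 and 209 CPM, though its ratio in pool 3 was 0.15 with the limit, and Slc2a3, the neuronal-type GLUT3, had ratios of 0.01, 1.13 and 0.43. Slc16a3, the lactate exporter MCT4, was at 0.308, 1.28 and 29.5 CPM in low-score and 5.18, 37.9 and 36.2 CPM in high-score cells and had the widest spread over pools, 2.24, 4.09 and 0.28, and 2.24, 3.47 and 1.63 with the limit. Slc16a3 was seen in all high-score cells of pools 2 and 3 and in 28.6% of those of pool 1. Slc16a1, which carries lactate both ways, and Bsg, the chaperone of these carriers, were not called, with means of 0.51 ± 0.18 and 0.82 ± 0.62.

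Of the genes that steer glucose use, 6 reached 5 CPM, 3 were called higher (Pdk1, Pfkfb3 and Pdk4, against 5.34% of all genes) and 0 lower, with a median of 1.08. With the limit 1 was called higher, Pdk1, 2 of the 6 were above 0 in all pools and the median was 0.66, with -0.30 in pool 3, where Pfkfb3 and Pdk4 had ratios of -0.22 and -1.11. Pdk1, the kinase that switches off pyruvate dehydrogenase, stood at 4.57, 32.02 and 13.95 CPM in low-score and 52.6, 119 and 92.8 CPM in high-score cells. Its ratios of 3.27, 1.87 and 2.65 gave a mean of 2.59 ± 0.70, the highest of all glycolytic and regulator genes, and 2.34 with the 15% limit. Pdk1 varied between cells of a group, since in pool 1 the high-score cells covered 0 to 232 CPM with a median of 5.85 and the low-score cells 0 to 80.5 CPM with a median of 0. Pfkfb3, which makes the activator of phosphofructokinase, was low at 1.10, 0.833 and 4.73 against 2.16, 20.4 and 9.64 CPM. Tigar, which opposes it, had ratios of 0.27, -1.20 and 0.40.

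**Figure D3:**
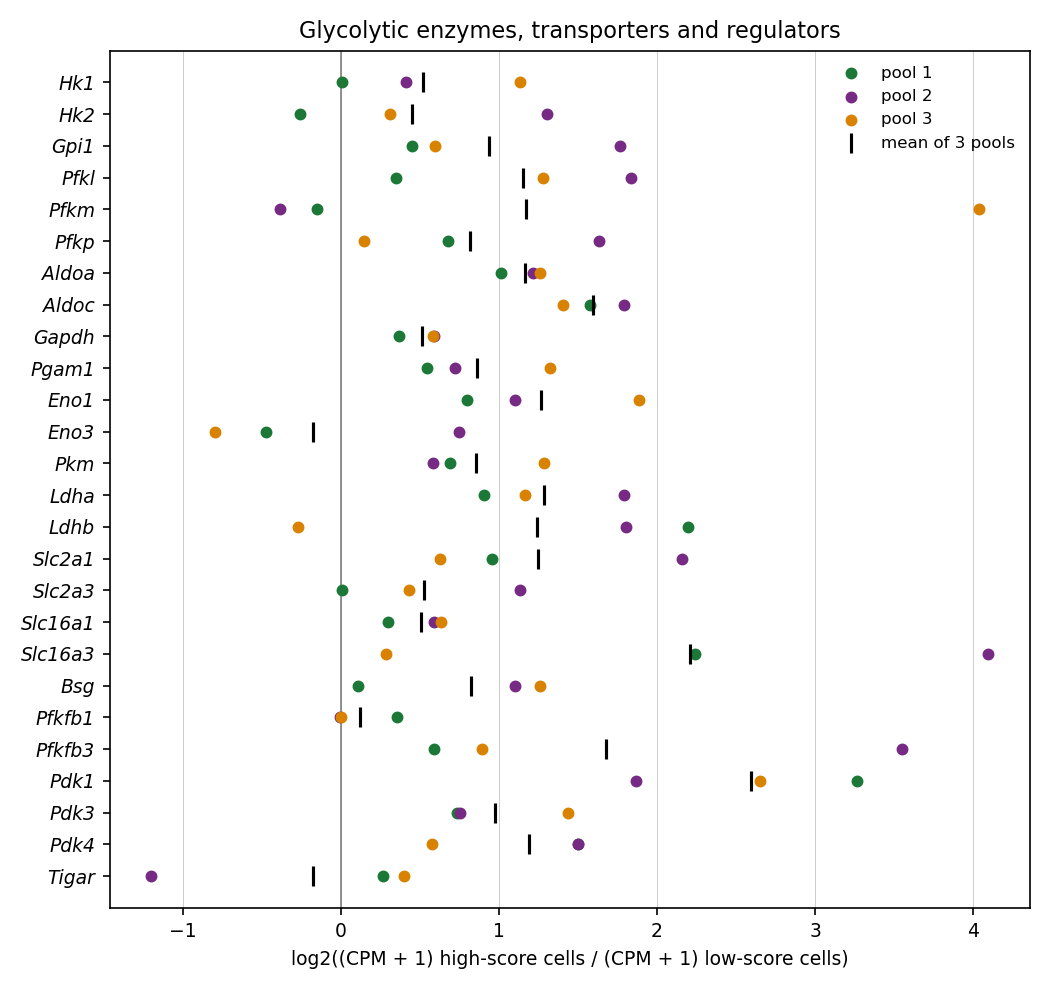
Log2 ratios of (CPM + 1) in high-score over low-score cells for each enzyme of glycolysis in pathway order, then the glucose and lactate carriers, then the regulators; points are the 3 pools and black bars their mean. Aldoa, Aldoc and Ldha lie to the right of 0 in every pool with means of 1.17, 1.59 and 1.29, whereas Pfkm and Slc16a3 spread widely.

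Some of the genes known to be induced by low oxygen were higher in high-score cells. Of 50 listed, 1 was a score gene and 41 of the others reached 5 CPM. Of these, 11 were called higher (against 5.34% of all genes), 0 were called lower, 16 were above 0 in all pools (against 19%) and 1 was below, Wsb1, a ubiquitin ligase adaptor with ratios of -0.94, -0.28 and -0.36. The median was 0.68, from 0.30, 1.54 and 0.58 in pools 1, 2 and 3, so pool 2 had the largest difference. With the 15% limit the median was again 0.68, with 0.23, 1.35 and 0.15 by pool, and again 11 were called higher, 8 of them the same. This list was written with earlier results of these cells known and 4 of the 41 are also counted among the carriers and regulators.

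P4ha2, a prolyl hydroxylase that modifies collagen in the endoplasmic reticulum, had the highest mean ratio of the list, 3.83 ± 1.07, and 3.74 with the limit. It was scarce, at 0.659, 0 and 0.401 CPM in low-score and 10.3, 29.2 and 18.7 CPM in high-score cells, and the low-score cells of pool 2 held 0 counts, which allows up to 0.102 CPM by the exact Poisson interval. P4ha2 was seen in 4.76%, 0% and 18.2% of low-score and 14.3%, 47.1% and 81.8% of high-score cells. Its sister P4ha1 had 0.91, 1.97 and -0.30, above 0 in pools 1 and 2 and not in pool 3.

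Ankrd37, a small ankyrin-repeat gene that is a strong HIF target, stood at 8.88, 24.3 and 4.09 against 17.4, 92.7 and 79.2 CPM, with a mean of 2.25 ± 1.57 (1.64 with the limit). In pool 3 its high-score cells ranged over 18.2 to 266 CPM with a median of 50.96 and none of them overlapped the low-score cells, at 0 to 15.1 CPM with a median of 0. Ero1l, the oxidase that helps proteins form disulfide bonds, stood at 27.03, 39.2 and 45.6 against 96.4, 252 and 122 CPM, with ratios of 1.80, 2.65 and 1.40, but with the limit its ratio in pool 3 was 0.21. Bhlhe40, a transcriptional repressor, stood at 9.62, 10.5 and 35.8 against 29.3, 220.1 and 98.1 CPM, with ratios of 1.51, 4.27 and 1.43 and, with the limit, 1.53, 3.97 and 0.02. The difference of Bhlhe40 in pool 3 was thus not seen once cells rich in mitochondrial counts were left out.

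Egln3, the oxygen-sensing prolyl hydroxylase PHD3, stood at 6.02, 9.19 and 41.5 against 16.3, 85.4 and 67.5 CPM (mean 1.69 ± 1.24, and 1.94 with the limit), and its relative Egln1 had ratios of -0.64, 1.21 and 0.91. Fam162a, a mitochondrial protein, was called higher at 79.4, 103 and 176 against 112, 421 and 397 CPM, with a mean of 1.23, and 1.22 with the limit. Bnip3l, the closest relative of Bnip3 and also a mitophagy receptor, had a smaller difference that was above 0 in every pool, 0.48, 0.88 and 0.94, at 77.2, 139.8 and 125 against 108, 258 and 242 CPM. Ier3 and Narf were the other members called higher, with means of 1.80 and 1.49, and neither kept the call with the limit.

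Several well-known members followed no common direction. Vegfa, the angiogenic growth factor, had ratios of -0.77, 2.03 and -0.56. Adm, adrenomedullin, had -0.34, 5.18 and 1.34, and Anxa2, a membrane-binding annexin, had -0.15, 6.27 and 2.08, both far apart between pools 1 and 2. Kdm3a, a histone demethylase, had -0.42, 0.09 and -0.04 and Hmox1, heme oxygenase, -1.15, 1.47 and 0.49. Car9, carbonic anhydrase 9, was at 0 CPM in both groups of every pool. Plod2, Ndrg1 and Stc2 had means of 1.07, 1.19 and 1.32 with 1 pool below 0 each.

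**Figure D4:**
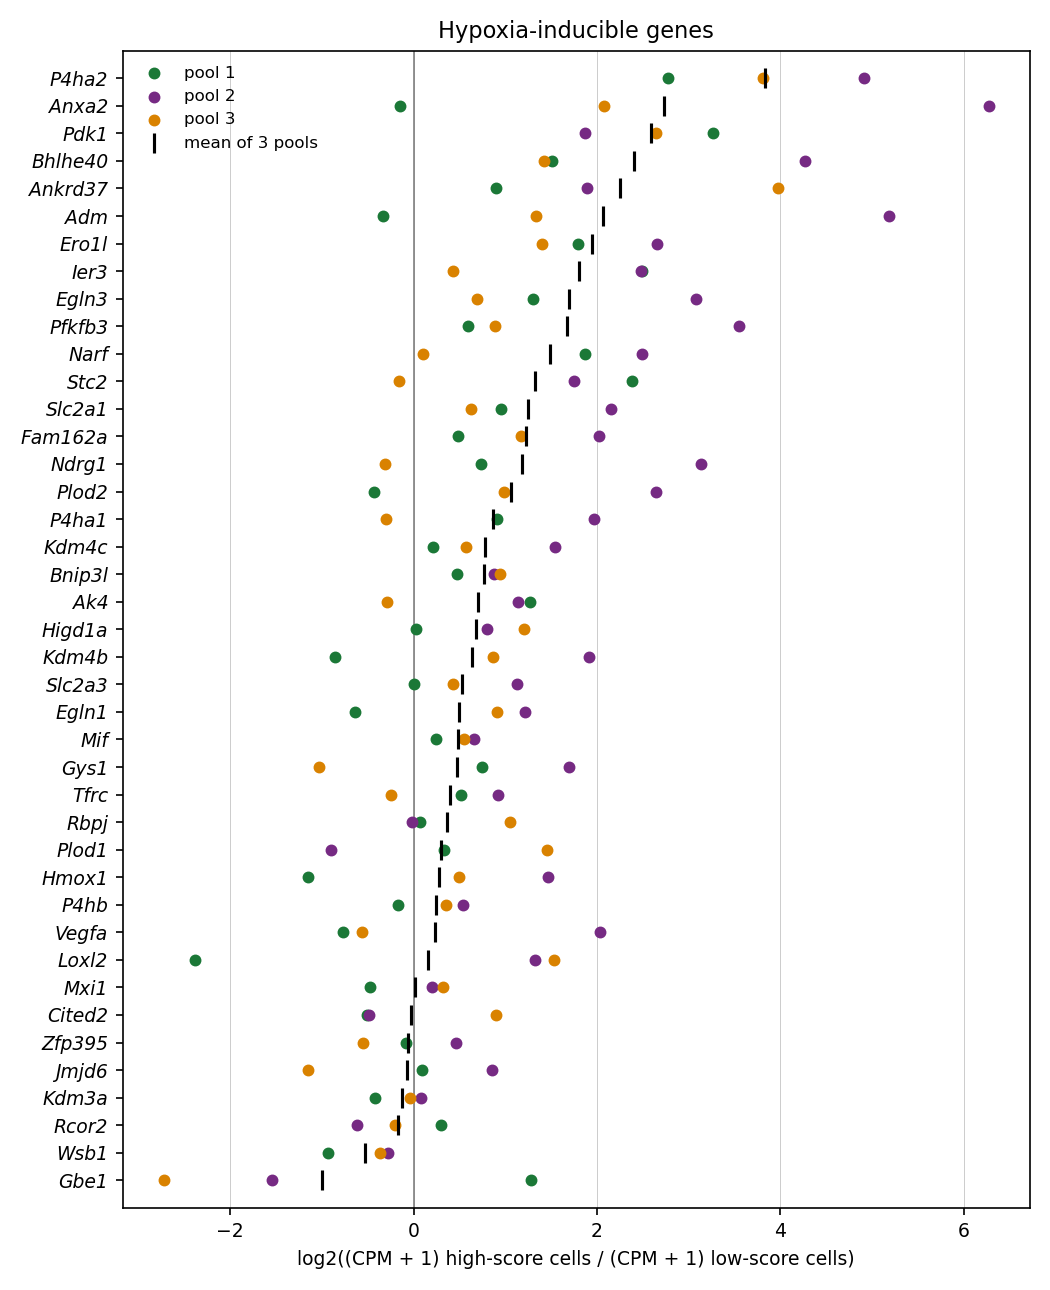
Log2 ratios of (CPM + 1) in high-score over low-score cells for the 41 hypoxia-inducible genes that reached 5 CPM, ordered by the mean of the 3 pools (black bars), with 1 point per pool. P4ha2, Pdk1, Bhlhe40 and Ankrd37 lie above 0 in every pool, Wsb1 lies below 0 in every pool, and points of pool 2 are often the furthest to the right.

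The transcripts of the HIF machinery itself showed no shared direction. Of 18 genes that reached 5 CPM, 2 were called higher (Egln3 and Vhl, against 5.34% of all genes) and 0 lower, with a median of 0.22 beside 0.18 for all genes (-0.07 beside -0.01 with the limit). Hif1a, the oxygen-regulated subunit, had ratios of -0.14, 0.20 and -1.62, and Epas1, coding for HIF-2 alpha, had 0.12, -0.04 and 3.47. Vhl, the ubiquitin ligase subunit that marks the alpha subunit for degradation, had ratios of 0.29, 1.19 and 4.66 with a mean of 2.05, and 0.17 with the limit. Arnt had ratios of 1.34, 2.64 and -1.76 and, with the limit, 1.35, 2.43 and 4.25, so that pool 3 turned.

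Across the 4 parts of the score, several genes climbed stepwise. Ldha stood at 961, 1027, 1119 and 1798 CPM from the lowest to the highest part in pool 1, at 870.2, 1473, 2249 and 3012 CPM in pool 2 and at 1755, 2402, 2768 and 3937 CPM in pool 3. Eno1 likewise stood higher at every step in every pool. Pdk1 did so in pools 1 and 2, and in pool 3 the second part lay above the third, at 13.95, 56.6, 46.1 and 92.8 CPM. P4ha2 went through 0, 4.96, 7.25 and 29.2 CPM in pool 2. Aldoa was about level between the middle parts of pool 1, at 1360.3, 1870.3, 1856 and 2752 CPM, and stepped up throughout in the other 2 pools.

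**Figure D5:**
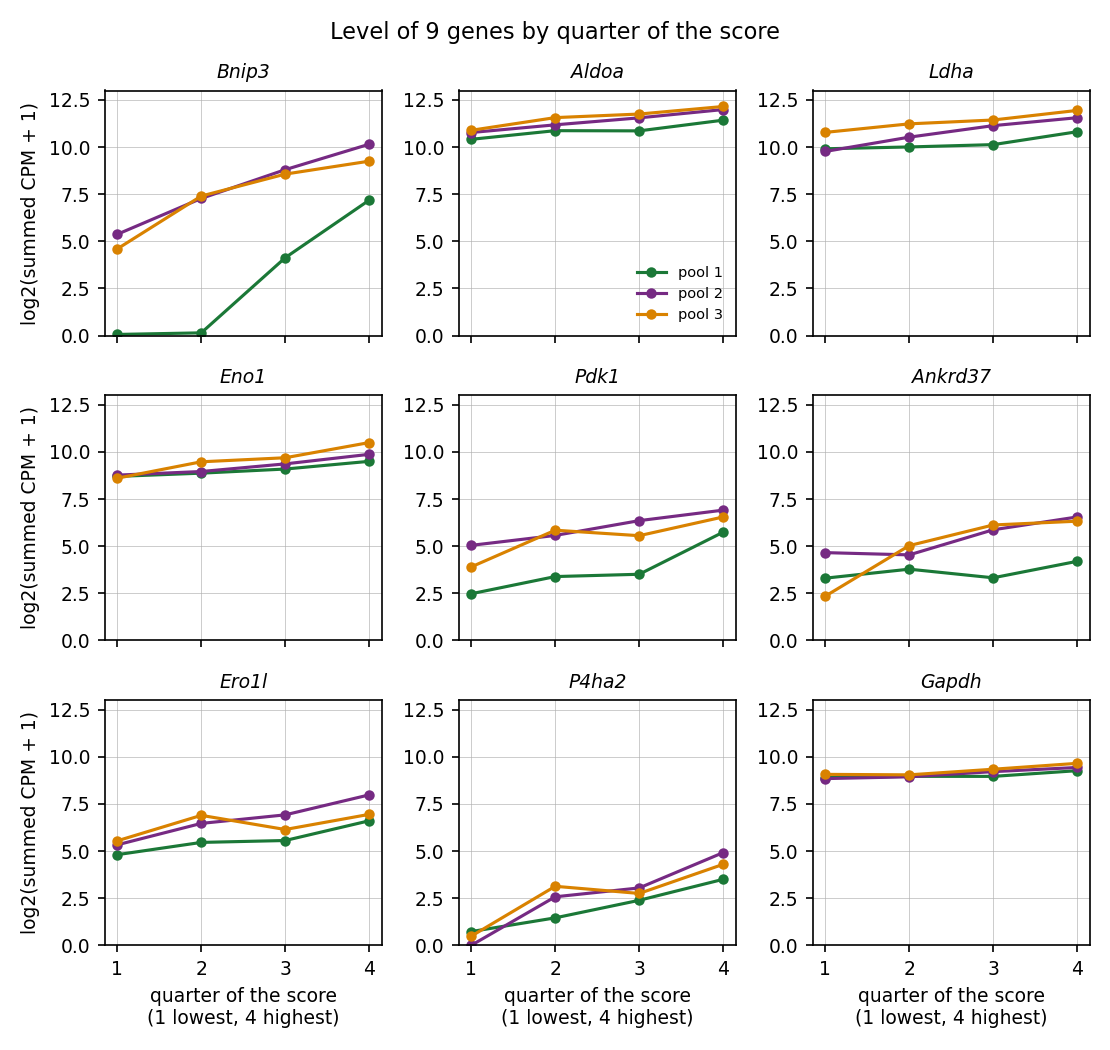
Summed level, as log2(CPM + 1), of 9 genes in 4 equal parts of the score from lowest (1) to highest (4) in each pool. Bnip3, which is part of the score, is at 0.0439 and 0.107 CPM in the lower parts of pool 1, and Ldha and Eno1 are higher at every step in every pool, whereas Gapdh covers a narrow range.

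Of 20 genes of mitophagy and autophagy that reached 5 CPM, 1 was called higher (5%, against 5.34% of all genes) and 0 lower, with a median of 0.20 beside 0.18 for all genes, and -0.13 beside -0.01 with the limit. The 1 was Wipi1, which binds phosphoinositides on the growing autophagosome, at 0.703, 1.36 and 0.561 against 4.51, 11.05 and 17.2 CPM, with a mean of 2.53, and 2.14 with the limit. Ulk1, the kinase that starts autophagy, was below 0 in every pool with ratios of -0.09, -1.43 and -1.05, and Sqstm1, the p62 cargo receptor, had -0.10, 1.22 and 0.66. Pink1, the kinase of the other main mitophagy route, was under the level of 5 CPM over all cells and so is not among the 20. It was lower in the high-score cells of every pool, at 10.7, 4.11 and 15.2 against 4.38, 2.77 and 0.776 CPM. The counts of this list thus leave out members low in high-score cells that missed the minimum.

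The mitochondrially encoded mRNAs were lower in high-score cells, with a median of -1.33 over 13 genes and 8 called lower (against 1.84% of all genes), but the ratios were -0.18, -0.93 and -3.15 in pools 1, 2 and 3. Their summed level went from 37072 to 32059 CPM, from 62791 to 40075 CPM and from 209014 to 23205 CPM. With the 15% limit the median was -0.33 (0.16, -0.68 and -0.55), none of the 13 kept the call and 3 were below 0 in all pools. mt-Co1, cytochrome c oxidase subunit 1, had ratios of -0.63, -0.12 and -3.21 and, with the limit, -0.33, 0.12 and -0.27. The difference was largest in pool 3. Since the limit removes cells by these same transcripts, the smaller values with it follow in part from the limit itself.

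Nuclear genes of respiration differed little once those cells were left out. For 47 subunits of the respiratory chain and ATP synthase the median was 0.23 and 0.02 with the limit, beside -0.01 for all genes, and 0 were called in either direction. For 25 genes of the citric acid cycle and pyruvate dehydrogenase it was 0.40 and 0.05. Me2, a mitochondrial malic enzyme, was the 1 of the 25 called higher (against 5.34% of all genes), with a mean of 1.06 and 0.56 with the limit. Ndufa4l2, a hypoxia-induced relative of a cytochrome c oxidase subunit, was among the genes most like the score and stood at 0, 0.194 and 10.2 against 5.21, 48.2 and 59.4 CPM. Its ratios were 2.63, 5.36 and 2.43, and 2.63, 5.32 and 1.78 with the limit.

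Pathways that branch from glycolysis had a median of 0.43 over 17 genes and 0.12 with the limit, beside 0.18 and -0.01 for all genes. Of the 17, 3 were called higher (17.6%, against 5.34% of all genes) and 0 lower. With the limit 1 was called higher (against 2.99% of all genes). Pgm1, phosphoglucomutase at the branch to glycogen, was called higher with and without the limit, at 13.98, 30.5 and 48.03 against 49.1, 100.3 and 193 CPM and a mean of 1.80 ± 0.16. Pygb and Ugp2, of glycogen breakdown and synthesis, had means of 1.13 and 1.31, and 0.99 and 0.79 with the limit.

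Stem cell markers were present in both groups. All 10 pluripotency markers reached 5 CPM, and their summed level was 9789 and 10476 CPM in the low-score and high-score cells of pool 1, 12376 and 10813 CPM in pool 2 and 7687 and 11921 CPM in pool 3. Of 8 markers of feeder fibroblasts, 4 were listed in the table and summed to at most 9.78 CPM in any group. Of 8 markers of primitive or visceral endoderm, 5 were listed and summed to 2.36 to 27.7 CPM, highest in the low-score cells of pool 3. None of 7 markers of 2-cell-like cells was listed.

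Genes of naive pluripotency had a median of -0.18 over 20 genes (-0.16 with the limit), beside 0.18 for all genes (-0.01). None was called, 8 of the 20 were below 0 in all pools (against 8.31% of all genes) and 2 were above, and with the limit 6 were below (against 14.6%). The median was 0.067 when every cell had the same weight and 0.13 after thinning to 100000 counts, where that of all genes was 0.33 and 0.34, so it lay below that of all genes in each case. Tfcp2l1, a transcription factor of the naive state, stood at 473, 365 and 287 against 418, 206 and 201 CPM, with ratios of -0.18, -0.82 and -0.51. Prdm14 and Tbx3 had means of -0.48 ± 0.19 and -0.60 ± 0.53. Nanog had -0.09, -0.59 and 0.91 and Pou5f1, coding for Oct4, 0.07, -0.17 and 0.90, so that the values of both were highest in pool 3, where they were 0.18 and 0.10 with the limit. Tdgf1, a co-receptor for Nodal, and Utf1 were the 2 above 0 in all pools, with means of 0.95 ± 0.35 and 0.90 ± 0.76.

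In the other lists, the medians, beside 0.18 for all genes (-0.01 with the limit), were 0.27 for 26 genes of S phase (-0.03), 0.20 for 26 genes of G2 and mitosis (0.13), 0.26 for 17 genes of the amino acid and integrated stress response (0.11), 0.20 for 15 chaperones of the endoplasmic reticulum (0.08), 0.13 for 8 heat shock genes (-0.09), 0.27 for 15 genes of the oxidative stress response (-0.04), 0.14 for 14 genes of the p53 response (-0.06), 0.04 for 29 ribosomal protein genes (-0.07), 0.07 for 3 metallothioneins (-0.24), 0.26 for 5 targets of MAPK and Wnt signalling (0.22), -0.21 for 7 immediate early genes (0.0029) and -0.28 for 8 long non-coding RNAs of the nucleus (0.20). The last had medians of 0.12, 0.91 and -1.50 in pools 1, 2 and 3, the lowest in the pool whose low-score cells were rich in mitochondrial counts. Among the members of these lists, Ddit3, the stress transcription factor CHOP, was called higher at 5.85, 6.97 and 0 against 9.19, 138 and 5.64 CPM, most of it in pool 2, with a mean of 2.48, and 1.73 with the limit. Of the 17 genes of the amino acid and integrated stress response, 2 were called higher (11.8%, against 5.34% of all genes), and 1 with the limit. Fos was the 1 immediate early gene called higher, against the median of its list (1 of 7, against 5.34% of all genes), with ratios of 1.11, 1.19 and 3.49, and 1.05, 1.25 and 1.20 with the limit. Bub1, a mitotic checkpoint kinase, was above 0 in all pools with a mean of 0.84 ± 0.74. Over 8 genes of early differentiation the median was 0.26 (0.36 with the limit), and Lef1, a partner of beta-catenin, was the 1 of the 8 called higher (against 5.34% of all genes), with ratios of 2.73, 2.18 and 0.16, and 2.74, 2.24 and 2.24 with the limit.

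Outside the lists, the highest mean ratios of genes seen in at least 25% of the high-score cells of every pool belonged to scarce genes. Dnmt3l, a cofactor of DNA methylation in germ cells and early embryos, stood at 2.46, 3.08 and 7.94 against 28.04, 45.4 and 108 CPM. Its ratios were 3.07, 3.51 and 3.61, alike in all pools and with the limit (3.08, 3.04 and 3.01), and it was seen in 14.3%, 23.5% and 36.4% of low-score and 33.3%, 47.1% and 90.9% of high-score cells. Igfbp4, a secreted protein that binds insulin-like growth factors, stood at 0.527, 8.41 and 26.6 against 13.3, 93.2 and 64.8 CPM. Soat1, which esterifies cholesterol, and Dgat2, which makes triglycerides, had means of 2.97 ± 1.17 and 2.59 ± 2.38, and 2.45 and 2.11 with the limit, where that of Igfbp4 was 3.24. Zfp449, Bhlhb9, Etfbkmt, Colec12 and Ttc39c had means between 2.49 and 3.02 and were called higher with the limit as well, whereas Cd68 and Jcad were not.

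The lowest mean ratios of this kind belonged to genes of similarly low level. Sugp2, a gene with splicing factor motifs, stood at 50.9, 17.3 and 54.6 CPM in low-score and 10.99, 3.78 and 12.6 CPM in high-score cells, with ratios of -2.11, -1.94 and -2.03, and -2.13, -2.25 and -0.44 with the limit. Id1, an inhibitor of basic helix-loop-helix factors, stood at 21.9, 10.6 and 14.9 against 10.02, 2.39 and 0 CPM and Tenm3, a teneurin of the cell surface, at 20.3, 12.9 and 24.1 against 8.33, 1.59 and 3.19 CPM, with means of -2.27 and -2.06, and -2.32 and -1.96 with the limit. Zrsr1, Mphosph9, Dqx1 and Ptp4a3 had means of -1.88, -1.87, -1.90 and -1.97, and stayed below -1 with the limit. When Pgk1 and Tpi1 alone chose the cells, however, the mean was -0.30 for Dqx1 and -0.33 for Cant1. Dqx1 was seen in 52.4%, 41.2% and 54.5% of low-score and 52.4%, 58.8% and 72.7% of high-score cells, and Zrsr1 in 42.9%, 52.9% and 45.5% against 57.1%, 58.8% and 54.5%. After thinning to 100000 counts, Dqx1 was seen in 38.8% of low-score and 32.7% of high-score cells of all pools, and Zrsr1 in 40.8% and 36.7%. Ptp4a3 was seen in 38.1%, 47.1% and 27.3% of low-score and 47.6%, 23.5% and 54.5% of high-score cells, and in 36.7% and 30.6% after thinning. Over all kept cells, Spearman's rho with the score, averaged over the pools, lay between -0.23 (Gm42418) and 0.04 (Dqx1) for the lowest 15. Such ratios can rest on a few cells. Adnp had the lowest mean, -3.77 ± 1.66, at 35.1, 7.59 and 54.2 against 1.75, 0.961 and 0.258 CPM, and -1.94 with the limit, where Id1 had the lowest mean of those named here. Adnp was seen in 28.6%, 52.9% and 54.5% of low-score cells. Tatdn2 went from a mean of -3.03 to -1.44 with the limit, and Phykpl, Vps53, Ndst1 and Cant1 from -2.12, -1.80, -1.79 and -1.76 to -1.59, -1.26, -1.46 and -1.41. Among the lowest 15, Gm42418 and Gm38359 did not keep the call with the limit. Gm42418 is a non-coding RNA at 955 CPM in the low-score cells of pool 3 and at 24.2 to 65.6 CPM in the other groups.

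Genes were also ranked by likeness to the score over all kept cells. Apart from the near-copies of the score genes, the genes with the highest mean Spearman's rho over the 3 pools were Aldoa (0.71), Eno1b (0.67), Gm4735 (0.65), Pgam1 (0.64), Eno1 (0.63), Aldoart1 (0.61), Gm7336 (0.59), Ndufa4l2 (0.59), Gapdh (0.59) and Ldha (0.57). These values cover 87, 71 and 45 cells that share a pool but not depth, and Spearman's rho of the score with the total count was 0.17, -0.12 and 0.34. Apart from Ndufa4l2 and the pseudogenes among them, the protein-coding members are named for aldolase, enolase, mutase, dehydrogenase and lactate dehydrogenase genes, and Eno1b and Aldoart1 may share reads with Eno1 and Aldoa. The lowest value was that of Gm28438, an unprocessed pseudogene on chromosome 1 (-0.40). Of the 10 lowest, 8 were mitochondrially encoded, among them mt-Nd3 (-0.38), mt-Cytb (-0.38) and mt-Nd1 (-0.38), and the other was Gm13339, an unprocessed pseudogene on chromosome 2 (-0.33).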

How the data were processed

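RNA of single mESCs was sequenced after capture on a Fluidigm C1 chip, whose chambers the authors inspected by light microscope, and no doublet caller was run here. The deposited mESC table holds estimated counts per gene and cell, not scaled, which the authors made by aligning reads to GRCm38 (mm10) with STAR 2.7 in Partek Flow; 28.9% of its values above 0 are not whole (more than 1e-06 from a whole number), and how reads were split between genes and whether strand was used is not given in the sources used here. The deposited CPCC table holds whole counts, of which 2 columns that name no cell were not used. Rows that name no gene or whose symbol had been turned into a date were left out, and 0 column names were shared between tables. Kept mESC cells had 203907 to 8105511 counts (median 1649199).

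Counts of the cells of a group were summed per pool, turned into CPM and compared as log2 of (CPM + 1), which understates the change of scarce genes. The genes named outside the lists were the 15 highest and 15 lowest mean ratios with the same sign in all pools, also with every cell at the same weight, and a count in at least 25% of cells of the higher group of each pool, and the 15 most and 10 least like the score; 1 gene that met the rule is not reported here. The members, lists and rules were chosen with earlier results of these data known. Estimated counts were rounded for thinning, exact intervals and scaling factors. Intervals cover counting error only, since reads are not independent molecules. Alternatives changed the share of cells taken, the depth minimum, pseudocount, low-level filter, weighting, thinning, score genes and scaling (edgeR 4.0.16 TMM and DESeq2 1.42.0 size factors, used for scaling only), and left out each pool. Sequences came from RefSeq and gene positions from GENCODE; near-copies were aligned with BLAST 2.17.0. The method was checked on simulated data.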

Additional observations from a re-analysis of the deposited data

How the results depend on the processing

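The number of genes called higher in high-score cells (556) and lower (191) depended on the settings. Of these 556 and 191 genes, 271 and 96 kept their call when Pgk1 and Tpi1 alone made the score. The numbers were 430 and 142 with Bnip3 and Tpi1, and 387 and 126 with Bnip3 and Pgk1. They were 521 and 180 without pool 1, 492 and 168 without pool 2 and 265 and 86 without pool 3. Taking the outer 1 of 3 parts of each pool gave 239 higher genes, and setting the upper against the lower 1 of 2 parts gave 105 higher and 61 lower. A pseudocount of 10 CPM gave 99 and 32, and no filter on low genes gave 907 and 373. The limit of 15% on the mitochondrial share, chosen after seeing the data, gave 311 higher. Leaving out a pool gave 512 to 1242 higher genes (1242 without pool 1, 1109 without pool 2) and 259 to 514 lower genes (514 without pool 1, 488 without pool 2), where fewer pools had to share a sign. Under all 18 alternatives, the median stayed above 0 for the glycolytic enzymes (0.58 to 1.09) and the hypoxia-inducible genes (0.39 to 0.98), and below 0 for the mitochondrially encoded mRNAs (-1.99 to -0.33, the last with the mitochondrial limit, and -0.46 without pool 3). The naive pluripotency median was 0.067 with every cell at the same weight and 0.13 after thinning, above 0 but below the medians of 0.33 and 0.34 over all genes there, -0.35 with DESeq2 size factors, and -0.24 to -0.038 when a pool was left out; the cause was not tested. The median over all genes, 0.18, was 0.05 with TMM factors, 0.02 with DESeq2 size factors, 0.33 with equal weights and 0.34 after thinning, and the share of higher genes among those called, 74.4%, was 63.2%, 59.9%, 84.2% and 82.8%. Of 392 values for 28 genes with the highest or lowest ratios, near-copies left aside, 334 moved by less than the SD over pools under 14 alternatives (leaving out a pool or the low-level filter cannot move a value by more), 58 moved more and 0 changed sign; these genes had been chosen for 1 sign in all pools and with equal weights, so their signs say little. Groups were compared within each pool, but no paired test was made, because both groups came from 1 sample. The title of the sample says triplicate, but nothing ties a cell or a pool to a replicate. Calls in scarce genes rest on few cells.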

Other observations

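The same rule was applied to the kept cells of the other cultures, 82 cells of the CPCCs (2 pools) and 108 of the CBs (3 pools), with values given side by side and no test. The median log2 ratio of the glycolytic enzymes was 0.88 in CPCCs (0.30 and 1.42 by pool) and 1.62 in CBs (1.71, 1.27 and 1.82), beside 0.94 in mESCs, with medians over all genes of 0.12, 0.04 and 0.18. The high-score CPCCs of pool 2 also differed in cell type markers, the median of 10 pluripotency markers being -0.22 in pool 1 and 4.21 in pool 2, and their genes of G2 and mitosis had medians of 0.01 and 1.31. In the high-score CBs the genes of G2 and mitosis had medians of -2.95, -0.21 and -0.32, 8 endoderm markers 1.99, 0.80 and 0, and 8 fibroblast markers -0.84, -0.61 and 0.25. The part of cell types and cell cycle in these values was not tested. The median of the hypoxia-inducible genes was 0.73 in CPCCs (0.38 and 1.24) and 1.25 in CBs, beside 0.68 in mESCs. The mitochondrially encoded mRNAs had medians of -0.64 in CPCCs (-0.20 and -1.17) and -0.42 in CBs. Pdk1, the inhibitor of pyruvate dehydrogenase, had ratios of -0.67 and 3.39 in the 2 pools of CPCCs and of 2.67, 2.17 and 2.32 in those of CBs, and Dnmt3l, the cofactor of DNA methylation, -0.28 and 7.07 in CPCCs, so that the CPCC pools went opposite ways for both.

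Of the 15 genes with the highest mean ratios in mESCs, 2 are near-copies of Bnip3 and were left aside. Of the other 13, 8 of 13 compared in CPCCs (61.5%) and 8 of 12 compared in CBs (66.7%) were above 0, against 60.3% and 52.6% of all genes there. Of the 15 lowest, 5 of 12 in CPCCs (41.7%) and 8 of 12 in CBs (66.7%) were below 0, against 39.7% and 47.4% of all genes. Sugp2, which was lower in the high-score mESCs, had mean ratios of 1.98 in CPCCs and -0.66 in CBs, and Igfbp4, which was higher there, had 0.34 and -1.19.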
